A study of Mus musculus with 82 samples.

Results

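Chaperones and the genes of the unfolded protein response (UPR) were followed in synaptoneurosomes and in homogenate of the mouse extended amygdala. Members were the genes whose array symbol begins with Hspa, Hspb, Hsp90, Dnaja, Dnajb, Dnajc or Pdia, or is Xbp1, Atf4, Atf6, Ddit3, Calr or Canx. The array lists 59 such genes with 103 probes. Of these, 43 were kept in the authors' normalized table of synaptoneurosomes and homogenate of control mice, among 12623 genes in all. The normalized alcohol tables kept 40 members in synaptoneurosomes and 43 in homogenate. Each gene was read from its probe of highest mean.

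The groups were synaptoneurosomes (SN) of 8 alcohol mice and 13 control mice, and total homogenates (TH) of 8 alcohol mice and 11 control mice, giving 40 arrays. All mice were C57BL/6J females aged 2 months by the labels. Alcohol mice chose between water and 20% ethanol around the clock for 30 days, and control mice had water in both bottles. SN, a preparation enriched in pinched-off synaptic endings, was made by passing the homogenate through filters of 100 µm and 5 µm pores and pelleting it at 14000 g for 20 min, while 10% of the homogenate was kept as TH. RNA was read on Illumina Mouse WG-6 v2.0 BeadChips, and the SN arrays used have a paired TH array for all but control mice 11 and 12. The TH arrays of these mice are marked as outliers in the labels and were not analysed here.

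Chaperones bind unfolded proteins and help them reach or regain their fold. In the cytosol, Hsp70 proteins work with J-domain proteins that deliver clients and with Hsp90, while small heat shock proteins hold clients until Hsp70 takes over. In the lumen of the endoplasmic reticulum (ER), the Hsp70 BiP, the lectins calnexin and calreticulin and the protein disulfide isomerases fold secreted and membrane proteins. When unfolded proteins build up there, the sensors Ire1, Perk and Atf6 raise the transcription factors Xbp1, Atf4 and Atf6, and Atf4 can raise Ddit3 (CHOP). In neurons a cytosolic Hsp70 with a J-domain partner also strips clathrin from synaptic vesicles.

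The array predates many current symbols. No Hsp90 gene, and no Pdia gene other than Pdia5, was listed under its current name, and the Pdia5 probe so named was not kept. A RefSeq gene table paired 25 older symbols with genes that fit the rule, among them Hspca (Hsp90aa1), Hspcb (Hsp90ab1) and Grp58 (Pdia3), and 17 of these genes were kept. They are given beside the 43 members and are not in the members' counts. A probe listed as Tra1 was assigned to no gene, because 2 genes of that table carry the older symbol, Hsp90b1 among them. The members whose probes were not kept were Canx, Dnaja1, Dnajb3, Dnajb7, Dnajb8, Dnajc5b, Dnajc9, Dnajc11, Hspa1b, Hspa1l, Hspa12a, Hspa14, Hspb2, Hspb7, Hspb9 and Pdia5, 16 in all. The single probe of Canx, the membrane lectin calnexin, was detected on 0 of the 22 paired control arrays at a detection p under 0.01.

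Arrays detected 15759 to 16983 probes in SN of alcohol mice, 16249 to 17914 in SN of control mice, 17211 to 17924 in TH of alcohol mice and 16861 to 17985 in TH of control mice. SN of control mice 13 and 12 stood apart from the rest of their group, with median correlations to the other SN control arrays of 0.974 and 0.978, against 0.987 to 0.991 for the others. Cell markers differed between the fractions of control mice, in a comparison where 20.0% of all genes rose in SN and 21.3% fell. All 8 endothelial and mural markers kept were lower in SN (median -1.40 on the log2 scale), with summed signals of 2094 to 3520 in SN and 8210 to 11649 in TH. All 8 astrocyte markers were higher in SN (median 0.79), with sums of 53821 to 69125 in SN and 32817 to 41867 in TH. Of 6 neuron markers kept, 0 rose and 2 fell, with sums of 27935 to 41296 in SN and 36466 to 44192 in TH, and Nefl and Snap25 were detected on no array. Of 7 microglia markers 3 rose and 0 fell (sums of 3489 to 5668 in SN and 3394 to 4376 in TH), and of 6 oligodendrocyte markers 3 rose and 3 fell (20713 to 55943 in SN and 13848 to 41546 in TH). Of 3 choroid plexus markers kept, 1 rose and 0 fell, with sums of 1186 to 20255 in SN and 1139 to 32513 in TH. Sums here and further on took every marker on the array, kept or not: 9 endothelial and mural, 8 neuron and 6 choroid plexus markers. Their signals were not corrected for background, so probes near background add to the sums. The part of these cell types in the results on chaperones was not tested. Between mice, in such bulk samples, fewer cells of a type and less RNA per cell cannot be told apart. Between fractions of the same homogenate, the recovery of a cell type's material and the place of its transcripts in the cell cannot be told apart.

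The first comparison asked which chaperone and UPR transcripts differ between SN and TH of the same control mice. Of the 43 members kept, 4 rose in SN and 16 fell (limma with the mouse as a block, Benjamini-Hochberg over all 17820 probes, adjusted p under 0.05), and 23 did not pass. Over all genes tested, 20.0% rose and 21.3% fell, 41.3% in either direction. The members' 46.5% in either direction is near that background, whereas their split was 9.30% up and 37.2% down. The median member difference was -0.055 on the log2 scale, and the median over all genes was 0.002. The 4 that rose were Hspb8, Dnajb10, Dnajc13 and Dnajc3, and those that fell included the UPR factors Xbp1 and Atf4 and 3 of 4 mitochondrial members. Without control mouse 13, which stood apart, 4 rose and 15 fell.

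**Figure D1:**
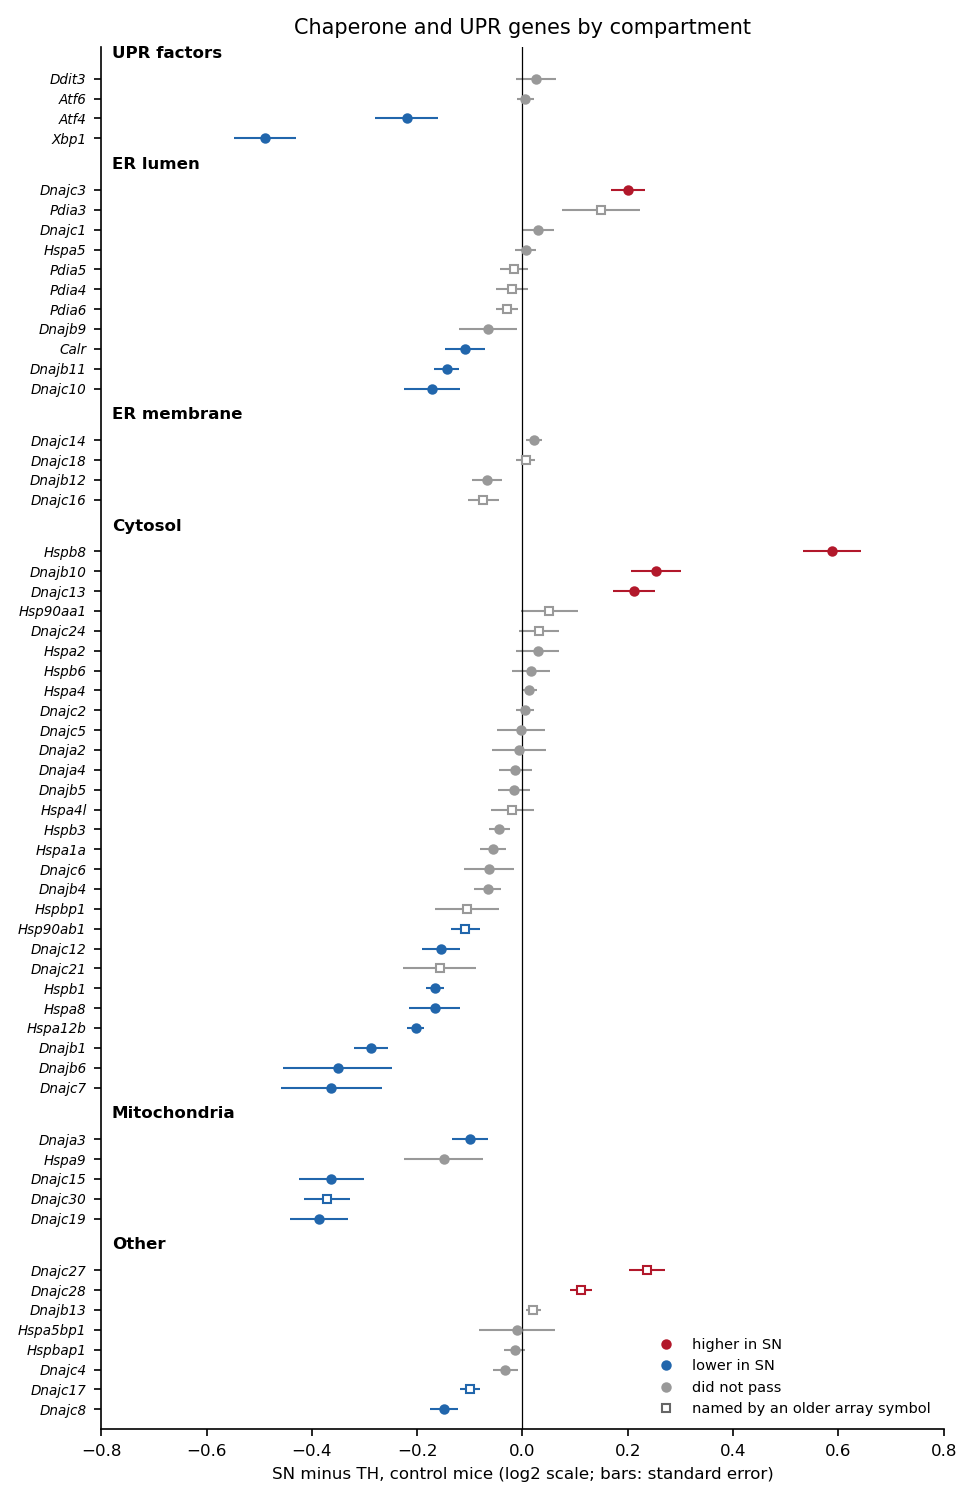
Difference between SN and TH in control mice (x axis, log2 scale, bars show the standard error) for the 43 members (circles) and the 17 genes named by an older array symbol (open squares), grouped by compartment. Hspb8 lies farthest to the right at 0.59 and Xbp1 farthest to the left at -0.49, and no mitochondrial gene lies above 0.

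Among the UPR factors, Xbp1 and Atf4 fell in SN, while Atf6 and Ddit3 did not pass. Xbp1 encodes the transcription factor whose mRNA Ire1 splices. Its level was 10.50 at the lowest, 10.72 at the median and 10.87 at the highest of 11 SN arrays, against 10.94, 11.19 and 11.44 in TH. The groups did not overlap, and SN was lower in every pair, with a difference of -0.49 ± 0.059 (SE, limma adjusted p = 3.74e-05). Of all genes tested in this comparison, 4.94% had groups that did not overlap, and of the 43 members Xbp1 and Hspa12b did.

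Atf4, the transcription factor of the Perk arm, ranged over 9.97, 10.29 and 10.60 in SN (lowest, median, highest), against 10.29, 10.44 and 10.70 in TH. The ranges overlapped, but SN was the lower sample in all pairs but 1, with a difference of -0.22 ± 0.060 (SE, adjusted p = 0.0109). A second Atf4 probe differed by -0.33. Ddit3, which encodes CHOP, had levels of 8.97, 9.23 and 9.49 in SN and 9.08, 9.18 and 9.38 in TH, and SN was higher in 6 pairs of 11 (0.03 ± 0.038, adjusted p = 0.628). Atf6, the membrane-bound sensor that is cut to a transcription factor, stayed at the floor of the array: its probe was detected on 3 of 11 arrays of SN and 3 of 11 of TH, and no difference was detectable at that brightness (0.006 ± 0.017, adjusted p = 0.824).

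**Figure D2:**
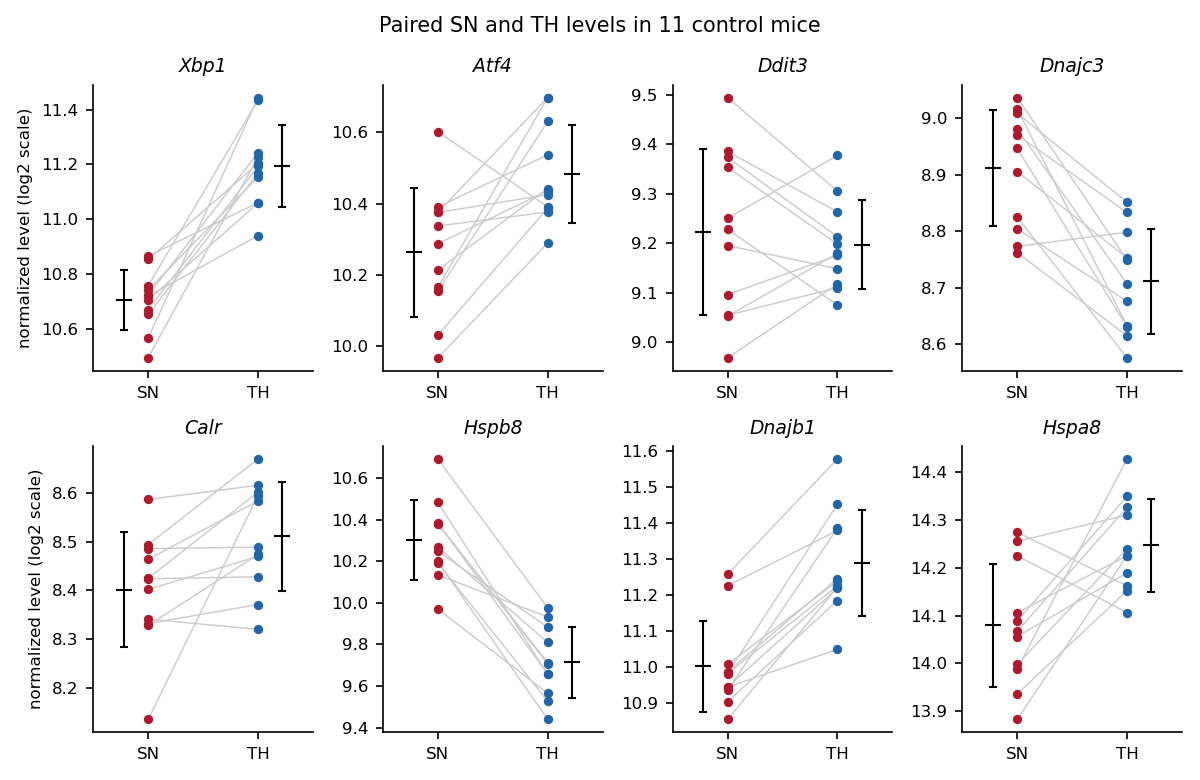
Normalized levels (y axis, log2 scale) of 8 members in SN (left) and TH (right) of the 11 control mice. Grey lines join the fractions of a mouse, and black bars show the mean and SD. All lines of Xbp1 and Dnajb1 run up towards TH, all lines of Hspb8 run down, and those of Ddit3 cross.

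Of the 7 members of the ER lumen, Dnajc3 rose in SN, Calr, Dnajb11 and Dnajc10 fell, and Hspa5, Dnajb9 and Dnajc1 did not pass. Dnajc3 (p58IPK) is a J-domain partner of BiP that also restrains Perk. It measured 8.76, 8.95 and 9.04 in SN (lowest, median, highest) and 8.58, 8.71 and 8.85 in TH. SN was higher in 10 pairs of 11, by 0.20 ± 0.033 (SE, adjusted p = 0.000394), although the ranges overlapped. With normexp background correction of the signals the difference was 0.38.

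Dnajb11, another J-domain partner of BiP, had levels of 9.64, 9.79 and 9.95 in SN and 9.81, 9.94 and 10.07 in TH, a difference of -0.14 ± 0.024 with SN lower in every pair (adjusted p = 0.000499). Dnajc10 (ERdj5), which reduces disulfides of proteins bound for degradation, measured 10.43 to 10.94 in SN and 10.57 to 10.91 in TH, ranges that overlapped over much of their length, and differed by -0.17 ± 0.053 (adjusted p = 0.0207). Calr, the lectin chaperone calreticulin, measured 8.14, 8.42 and 8.59 in SN and 8.32, 8.49 and 8.67 in TH, a difference of -0.11 ± 0.039 (adjusted p = 0.0402). That call was close to the threshold: it was lost without any 1 of control mice 1, 2, 4, 7 and 9, where the adjusted p was 0.0544, 0.0748, 0.0648, 0.0788 and 0.0732. Without a mouse block the adjusted p was 0.0797, and with all probes of the array it was 0.0789 at a difference of -0.18 between joint quantile-normalized signals. Without control mouse 13 Calr was still called, at a difference of -0.074 (limma adjusted p = 0.0287).

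Hspa5 (BiP), the Hsp70 of the ER and the classic target of the UPR, was read by 1 probe that was detected on 5 of 11 SN arrays and 6 of 11 TH arrays. Its level was 7.84, 7.93 and 8.01 in SN and 7.85, 7.91 and 7.98 in TH, with a difference of 0.006 ± 0.020 (adjusted p = 0.835). At this brightness no difference was detectable. Dnajb9, a BiP partner with a J domain, had an SN range that took in its TH range of 9.05 to 9.45. Dnajc1, a J-domain protein of the ER, measured 7.93 to 8.29 in SN and 7.91 to 8.06 in TH.

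The disulfide isomerases listed under older symbols did not pass. Pdia3 (ERp57), which works with calreticulin on glycoproteins, had the widest spread, 9.89, 10.27 and 10.89 in SN against 9.96, 10.16 and 10.54 in TH (0.15 ± 0.074, adjusted p = 0.133, SN higher in 8 pairs of 11). Without control mouse 13, whose SN array stood apart, Pdia3 did pass, at a difference of 0.20 (limma adjusted p = 0.0209). Pdia4 measured 8.50 to 8.67 in SN and 8.43 to 8.74 in TH, Pdia5 7.99 to 8.35 in SN and 8.04 to 8.17 in TH, and Pdia6 8.25 to 8.46 in SN and 8.25 to 8.58 in TH. The J-domain genes of the ER membrane, Dnajb12 and Dnajc14 among the members and Dnajc16 and Dnajc18 under older symbols, did not pass either, with differences between -0.074 and 0.022.

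ER chaperone genes are known to carry an ER stress element in their promoters, which binds cleaved Atf6 and Xbp1 together with NF-Y. Promoter windows of 250 bases before to 50 bases after the start were taken from RefSeq (GRCm38.p6). They were found for 49 of the 60 genes kept, and those without an entry were Atf6, Dnajc2, Dnajc5, Dnajc12, Dnajc18, Dnajc30, Hsp90aa1, Hsp90ab1, Hspa5bp1, Hspa8 and Hspa9. The element, CCAAT and CCACG with 9 bases of any kind between them, searched on both strands, was present in 4 of these 49 genes and in 0.119% of all 32851 windows. It is shown in capitals for these 4 genes with 8 bases on each side, on the transcribed strand. In Calr the element lies on the opposite strand.
Hspa5, chr2:34772017-34772051, plus strand: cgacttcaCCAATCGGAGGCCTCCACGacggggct
Dnajc3, chr14:118937819-118937853, plus strand: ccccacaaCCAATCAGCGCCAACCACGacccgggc
Pdia6, chr12:17266483-17266517, plus strand: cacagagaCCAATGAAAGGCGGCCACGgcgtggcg
Calr, chr8:84847067-84847101, minus strand: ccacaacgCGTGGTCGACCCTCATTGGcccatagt

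The elements end 46 bases before the annotated start in Hspa5, 86 in Dnajc3, 79 in Pdia6 and 143 in Calr. Of the 4 genes that carry it, Dnajc3 rose in SN, Calr fell, and Hspa5 and Pdia6 did not pass. The Calr call was close to the threshold, and the Hspa5 probe was too dim for a difference to be detectable. Whether the element goes with the difference between fractions was not tested. The window of Dnajb11 held the related element of ATTGG and CCACG with 1 base between them, found in 0.0365% of all windows. The element TGACGTGG, bound by Xbp1 and Atf6, was in none of the 49 genes' windows and in 0.676% of all windows. A match of letters is a description of these windows and not evidence of binding.

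In the cytosol, 3 of 22 members rose in SN and 7 fell. The small heat shock gene Hspb8, whose protein works with Bag3 in the selective autophagy of misfolded proteins, had the largest difference of the members on the authors' normalized scale. After normexp correction Hspb8 differed by 0.72, less than Hspa12b and Hspb1 did, both of which were dim in SN. Its level was 9.97, 10.27 and 10.69 in SN (lowest, median, highest) and 9.44, 9.71 and 9.98 in TH. Every pair was higher in SN, by 0.59 ± 0.055 (SE, adjusted p = 5.56e-06), and the second Hspb8 probe differed by 0.31. The ranges met only at their ends.

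The other small heat shock genes did not follow Hspb8. Hspb1 (Hsp27) fell, with levels of 7.89, 7.91 and 8.02 in SN and 7.97, 8.10 and 8.16 in TH and with SN lower in every pair (-0.17 ± 0.018, adjusted p = 1.44e-05). Its probe was dim, detected on 4 of 11 SN arrays and on every TH array, and the normalized scale is compressed there: after a normexp background correction the difference was -1.005. Hspb6, with 9.24 to 10.01 in SN and 9.19 to 9.84 in TH, and Hspb3, with 7.86 to 8.09 in SN and 7.90 to 8.16 in TH, did not pass.

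The constitutive Hsp70 Hspa8 (Hsc70), which with auxilin strips clathrin from synaptic vesicles, measured 13.88, 14.07 and 14.27 in SN and 14.11, 14.23 and 14.43 in TH. SN was lower in 9 of 11 mice, and the difference was -0.17 ± 0.049 (SE, adjusted p = 0.0165). All 4 Hspa8 probes were lower in SN, but they ranged from -0.86 to -0.03 and 2 of them passed. Taking the median level of the 4 probes on each array gave -0.36. The auxilin gene Dnajc6 did not pass (12.65 to 13.20 in SN, 12.85 to 13.05 in TH). Nor did the brighter probe of Dnajc5, the cysteine string protein of synaptic vesicles (12.33 to 12.72 in SN, 12.32 to 12.64 in TH), whereas its second probe was higher in SN by 0.20 (adjusted p = 0.0237).

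Hspa12b, an atypical Hsp70 known from endothelial cells, did not overlap between fractions, with 7.86 to 7.95 in SN and 8.06 to 8.15 in TH (-0.20 ± 0.017, adjusted p = 1.94e-06). Its probe was detected on 1 of 11 SN arrays and on every TH array, so SN was near background and the size of the difference was not well measured: after normexp correction it was -1.26. All 8 endothelial and mural markers kept were lower in SN too, as given above. Among the other Hsp70 genes, the stress-inducible Hspa1a (8.08 to 8.29 in SN, 8.12 to 8.41 in TH), Hspa2 (11.03 to 11.39 in SN, 10.77 to 11.51 in TH) and the Hsp110 gene Hspa4 (7.90 to 7.97 in SN, 7.89 to 7.97 in TH) did not pass. Hspa4l, the Hspa4 paralog under an older symbol, did not pass either, with 7.94 to 8.48 in SN and 8.00 to 8.13 in TH.

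Of the cytosolic Hsp90 genes, named by older array symbols, the constitutive Hsp90ab1 fell slightly, with 12.81, 13.01 and 13.15 in SN against 12.95, 13.11 and 13.23 in TH (-0.11 ± 0.027, adjusted p = 0.00717, SN lower in 10 pairs of 11). The adjusted p was 0.0578 without the mouse block and 0.107 after normexp correction. Its other probes differed by -0.35 and -0.28, and taking the median level of the 3 probes on each array gave -0.35. The inducible Hsp90aa1 measured 9.24, 9.56 and 9.83 in SN and 9.16, 9.55 and 9.69 in TH, and did not pass (0.05 ± 0.054, adjusted p = 0.492).

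Among the cytosolic J-domain genes, Dnajb10 and Dnajc13 rose while Dnajb1, Dnajb6, Dnajc7 and Dnajc12 fell. Dnajb10, now called Dnajb2 and known as a neuronal co-chaperone, had levels of 10.43, 10.61 and 10.81 in SN and 10.13, 10.41 and 10.59 in TH, higher in SN in every pair (0.25 ± 0.048, adjusted p = 0.00106). Dnajc13, an endosomal J-domain protein, measured 9.29, 9.48 and 9.92 in SN and 9.09, 9.34 and 9.41 in TH, higher in SN in 10 pairs (0.21 ± 0.040, adjusted p = 0.00115).

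Dnajb1 (Hsp40), the stress-inducible partner of Hsp70, measured 10.85, 10.98 and 11.26 in SN and 11.05, 11.24 and 11.58 in TH and was lower in SN in every mouse (-0.29 ± 0.032, adjusted p = 2.22e-05). Dnajc7, which hands clients between Hsp70 and Hsp90, had a wide range in SN, 9.18, 9.41 and 10.17, against 9.62, 9.82 and 10.21 in TH (-0.36 ± 0.10, adjusted p = 0.00914). Dnajb6, a suppressor of polyglutamine aggregation, had 8.65, 9.47 and 9.56 in SN and 9.39, 9.75 and 10.00 in TH (-0.35 ± 0.10, adjusted p = 0.0176), and its 3 probes differed by -0.38, -0.35 and -0.05. Without control mouse 13, whose SN array was the lowest, the Dnajb6 difference was -0.25 ± 0.055. Dnajc12, a co-chaperone of the aromatic amino acid hydroxylases, fell by 0.15 on the log2 scale (adjusted p = 0.0048), or by 0.41 with normexp correction.

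Heat shock elements, which Hsf1 binds, were searched on both strands as GAA, TTC and GAA, with 2 bases of any kind in each gap. Of the 49 genes with a window, Dnajb6 was the one with such an exact match, which 0.603% of all windows held. Inexact elements and those outside the windows were not searched, so genes without a match can still carry one. Windows of Dnajb1, Hspa1a and Hspb1 held no exact match, and Hspa8, Hsp90aa1 and Hsp90ab1 had no window. The Dnajb6 match is shown in capitals on the transcribed strand, 33 bases before one annotated start and 114 before another.
Dnajb6, chr5:29735844-29735872, plus strand: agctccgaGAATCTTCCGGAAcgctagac

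Of 4 mitochondrial members kept, Dnajc19, Dnajc15 and Dnaja3 fell, and Hspa9 did not pass. Dnajc19, a J-domain protein of the inner-membrane import motor, measured 10.35, 10.52 and 10.73 in SN and 10.68, 10.83 and 11.18 in TH, lower in SN in every pair (-0.39 ± 0.056, adjusted p = 0.00015). Its 2 probes disagreed: the dimmer one was higher in SN by 0.08 (adjusted p = 0.00797), so the direction holds for the probe of higher mean only, and the median level of both on each array gave -0.15. Dnajc15, another import J-domain protein, had 9.48, 9.65 and 10.13 in SN and 9.76, 10.06 and 10.46 in TH, again lower in every pair (-0.36 ± 0.061, adjusted p = 0.000483).

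Dnajc30, a mitochondrial J-domain gene listed as Wbscr18, did not overlap between fractions, with 10.39, 10.64 and 10.71 in SN and 10.75, 10.97 and 11.16 in TH (-0.37 ± 0.043, adjusted p = 2.76e-05). Dnaja3 (Tid1) of the matrix differed by -0.10 ± 0.034 (adjusted p = 0.0321). The median level of its probes gave -0.040. The call was lost without control mouse 2, 5, 6, 9 or 13, at adjusted p of 0.0657, 0.0572, 0.06, 0.0624 and 0.0574, and under several other settings given in the closing section. Hspa9 (mortalin), the matrix Hsp70, measured 11.24, 11.96 and 12.10 in SN and 11.85, 12.04 and 12.12 in TH (-0.15 ± 0.075, adjusted p = 0.138), with the SN array of control mouse 13 lowest. Without that mouse its difference was -0.076 (adjusted p = 0.147).

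Of the remaining members, the nuclear splicing co-chaperone gene Dnajc8 fell by 0.15 on the log2 scale with SN lower in every pair (adjusted p = 0.000695; 0.24 with normexp correction, 0.074 with the median level of its probes), and Dnajc4, Hspa5bp1 and Hspbap1 did not pass. Under older symbols, Dnajc27, a Rab-like J-domain gene, rose by 0.24 (9.995 to 10.68 in SN, 9.92 to 10.31 in TH, adjusted p = 0.000164), Dnajc28 rose by 0.11 and the nuclear Dnajc17 fell by 0.10. The median level of the probes gave 0.15 for Dnajc27 and 0.052 for Dnajc28, and normexp correction gave -0.44 for Dnajc17 and 0.23 for Dnajc28. Dnajb13, Dnajc21, Dnajc24 and Hspbp1 did not pass.

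ER-lumen and cytosolic members were set against each other within each mouse, by the median SN minus TH difference of each class. Over 11 control mice the ER median ran from -0.10 to -0.005 and the cytosolic median from -0.12 to 0.03. ER minus cytosol was 0.007 ± 0.048 (SD, n = 11), with the ER median below the cytosolic one in 6 mice. Medians over the fitted differences gave -0.035, a difference of opposite sign but also smaller than the spread between mice. The value changed sign under other settings, to 0.021 with every probe of the array, 0.0117 with the genes under older symbols, 0.0059 without control mouse 5 and 0.0023 without control mouse 13. It was -0.014 without control mouse 2, -0.0549 without control mouse 3, -0.0599 without control mouse 1 and -0.095 over the probes detected on every array. In the 8 alcohol mice the ER median was -0.22 to -0.05 and the cytosolic median -0.10 to -0.02, and ER minus cytosol was -0.069 ± 0.065 (SD, n = 8), below 0 in 7 mice. With the genes under older symbols it was -0.025 ± 0.068 in alcohol mice and 0.026 ± 0.032 in control mice. These values describe members chosen with results known and carry no test. Values of alcohol mice come from signals normalized in another way, so their sizes are not to be set against those of control mice.

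**Figure D3:**
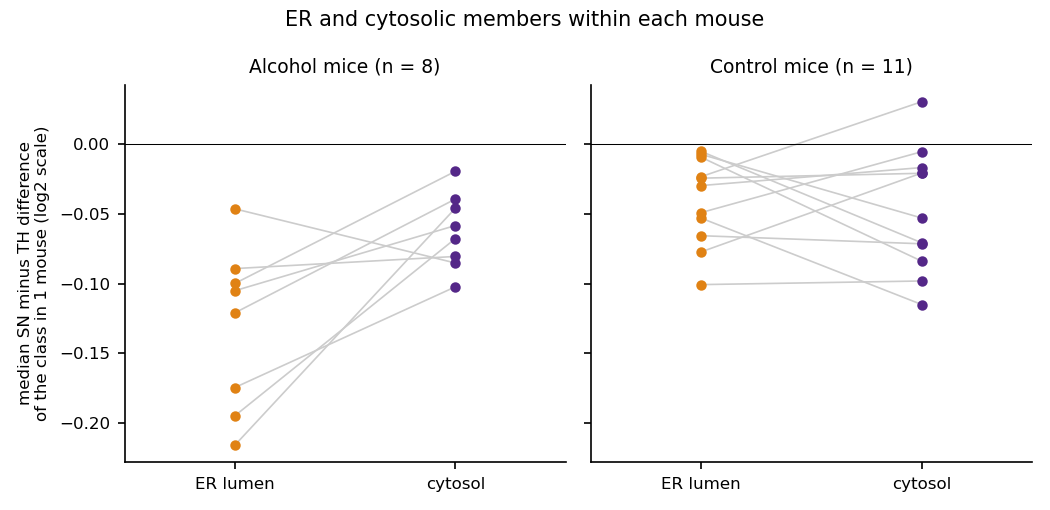
Median SN minus TH difference (y axis, log2 scale) of ER-lumen members and cytosolic members within each mouse, for alcohol mice (left) and control mice (right). Lines join the classes of a mouse. All medians lie below 0 but the cytosolic one of 1 control mouse at 0.03, and the lines cross in control mice. The kinds of mice were normalized in different ways, so their sizes are not to be set against each other.

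Genes around the members were read from lists of the same pathways. Over all genes tested, 20.0% rose and 21.3% fell, 41.3% in either direction, and the counts of every list are to be read against these shares. Of 17 ER stress sensors, regulators and targets measured outside the members, 1 rose in SN and 6 fell. Asns, an amino acid response target of Atf4, averaged 11.11 ± 0.20 in SN and 11.48 ± 0.16 in TH (SD, n = 11 each; difference -0.37, adjusted p = 0.000561). Herpud1, a component of ER-associated degradation, differed by -0.28 and Chac1, a glutathione-degrading target of Atf4, also by -0.28, while Serp1, which stabilizes membrane proteins in the translocon, rose by 0.21.

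Of 18 genes of the translocon and signal peptide machinery, 3 rose and 9 fell, led by Ssr2 (-0.61), the signal peptidase subunits Spcs1 (-0.56) and Sec11a (-0.42). Of 14 genes of ER disulfide, glycoprotein and degradation machinery, 1 rose and 4 fell, the largest being Erp29 (-0.26), Erlec1 (-0.23) and P4hb (-0.12), the gene of the main protein disulfide isomerase.

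Of 23 cytosolic co-chaperones and heat shock factors, 2 rose and 11 fell. Ppid (-0.35), Ahsa1 (-0.32) and Chordc1 (-0.30), co-chaperones of Hsp90, moved most. Of 11 chaperonin and prefoldin genes 0 rose and 4 fell, with Pfdn4 at 10.09 ± 0.12 in SN against 10.74 ± 0.20 in TH (SD, n = 11 each), Cct6a at a difference of -0.32 and Cct8 at -0.18. Of 9 mitochondrial chaperones, Lonp1 rose by 0.18 on the log2 scale, Grpel1 fell by 0.23 and Hspd1 (Hsp60) fell by 0.18. The list medians were 0.0003 for ER stress genes, -0.15 for the translocon, -0.04 for the disulfide and degradation genes, -0.11 for co-chaperones, -0.09 for chaperonins and -0.03 for mitochondrial chaperones, against 0.002 over all genes.

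The same contrast in the 8 alcohol mice, none of which is among the control mice, was fitted to signals normalized jointly over both fractions, since the authors normalized the fractions of alcohol mice apart. Differences on this log2 scale are not to be set against the control values in size. Of 40 members measured, 5 rose in SN and 15 fell (limma, mouse as a block, adjusted p under 0.05), where 21.8% of all genes rose and 25.7% fell, 47.5% in either direction. The median member difference was -0.071, and that of all genes -0.01.

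Of the 40 members, 19 were called in control mice and 20 in alcohol mice, and 16 were called in both in the same direction, 84.2% of the first and 80% of the second. Of all 12255 genes measured in both kinds of mice, 3936 were called in both in the same direction, 76.2% of those called in control mice and 67.5% of those called in alcohol mice. The 16 members called in both were 4 that rose and 12 that fell, and 0 members were called in opposite directions. Dnaja3, Dnajc7 and Dnajc8 were called in control mice alone, and Ddit3, Dnajb4, Dnajb9 and Dnajc6 in alcohol mice alone. The test of the difference between alcohol and control mice, given further on, passed for none of these genes.

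**Figure D4:**
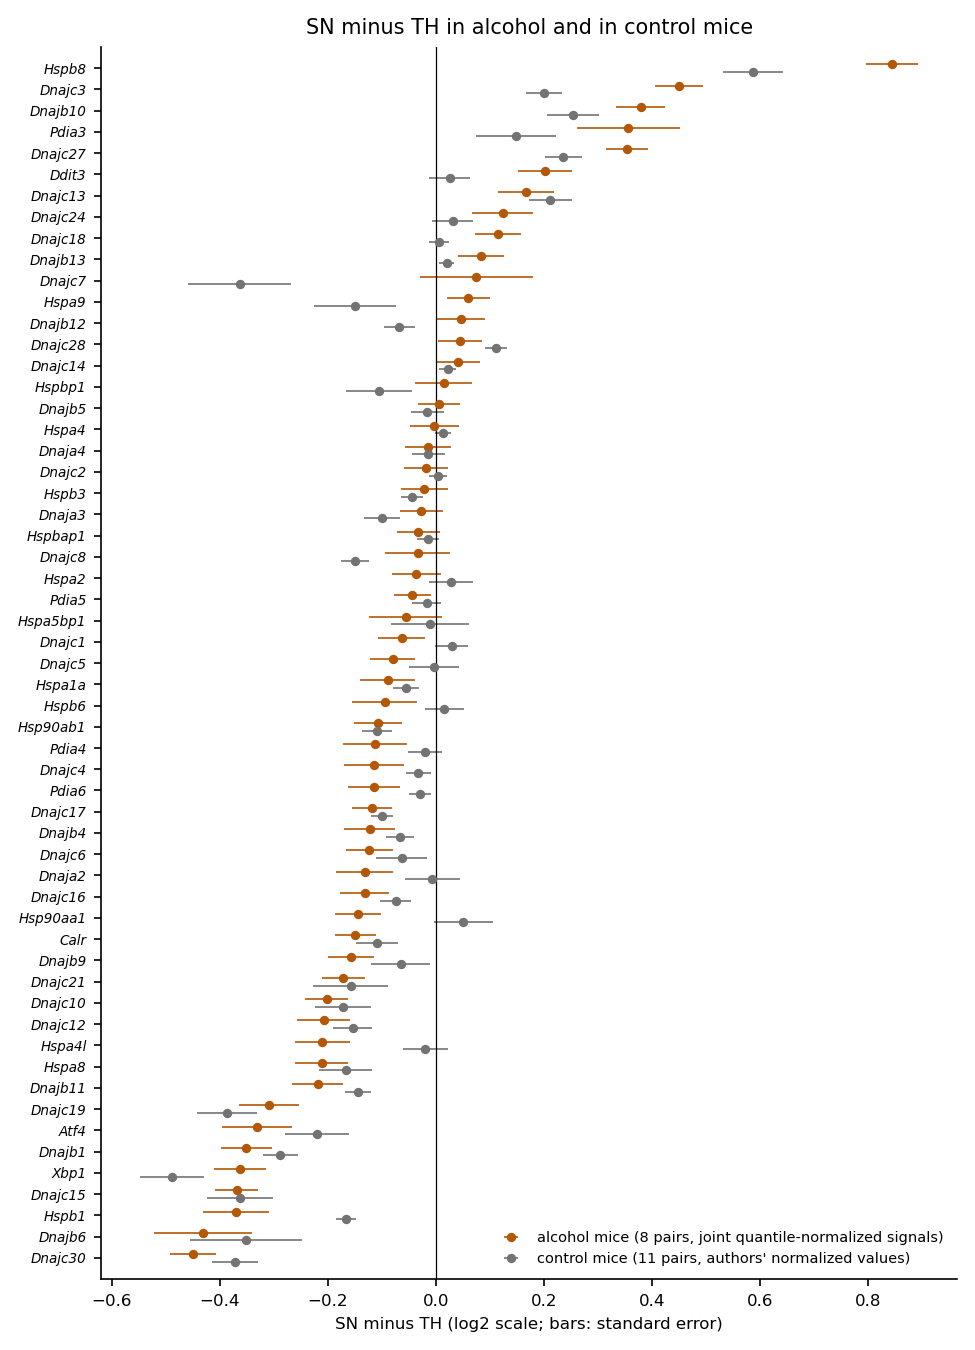
Difference between SN and TH (x axis, log2 scale, bars show the standard error) for members and genes under older symbols in alcohol mice (orange) and control mice (grey), ordered by the value in alcohol mice. Hspb8 is at the top with 0.85 and 0.59, and Dnajc7 lies at 0.07 and -0.36. Alcohol mice are shown from joint quantile-normalized signals and control mice from the authors' normalized values. Their sizes are not to be set against each other.

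Hspb8 rose in SN in all 8 pairs, with levels of 10.35, 10.66 and 10.80 in SN against 9.40, 9.85 and 10.02 in TH, groups that did not overlap (0.85 ± 0.048, adjusted p = 6.83e-09). Of all genes in this comparison 11.3% did not overlap. Dnajc3 did not overlap either, at 8.82, 8.89 and 9.11 in SN against 8.38, 8.49 and 8.55 in TH (0.45 ± 0.045, adjusted p = 1.74e-06), nor did Hspb1, at 6.77, 7.04 and 7.18 in SN against 7.25, 7.33 and 7.60 in TH (-0.37 ± 0.061, adjusted p = 0.000182). The Hspb1 probe was detected on 4 of 8 SN arrays and on 8 of 8 TH arrays, and the difference was -1.01 after normexp correction. Xbp1 was lower in SN in all 8 pairs, with 10.81, 10.93 and 11.32 in SN against 11.28, 11.33 and 11.44 in TH (-0.36 ± 0.048, adjusted p = 2.49e-05). Here 1 SN array reached into the TH range.

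Atf4 was likewise lower in SN in all 8 pairs (-0.33 ± 0.064, adjusted p = 0.000707), with 9.96 to 10.51 in SN and 10.23 to 10.75 in TH. Ddit3 rose in SN in all 8 pairs, with 8.98, 9.27 and 9.42 in SN and 8.84, 9.04 and 9.20 in TH (0.20 ± 0.050, adjusted p = 0.0039). Dnajb6 (-0.43 ± 0.091), Dnajc15 (-0.37 ± 0.039), Dnajb1 (-0.35 ± 0.047) and Dnajc19 (-0.31 ± 0.055) fell as they had in control mice, but the median level of the Dnajc19 probes gave -0.045 (adjusted p = 0.36). Dnajb9, a further J-domain partner of BiP, fell by 0.16 on the log2 scale (adjusted p = 0.0069). Calr fell by 0.15 on the log2 scale in all 8 pairs (adjusted p = 0.00513, and 0.0815 without the mouse block), or by 0.23 with normexp correction.

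Among the other called members, Dnajb10 rose with 10.62, 10.87 and 11.04 in SN and 10.29, 10.41 and 10.69 in TH (0.38 ± 0.046, adjusted p = 9.89e-06), and Dnajc13 by 0.17 on the log2 scale (adjusted p = 0.0157). Hspa8 was lower in SN in every pair, with 13.90, 14.07 and 14.34 in SN and 14.24, 14.30 and 14.37 in TH (-0.21 ± 0.049, adjusted p = 0.00276; -0.41 with the median level of its probes). The ER genes Dnajb11 (-0.22 ± 0.048) and Dnajc10 (-0.20 ± 0.040) and the cytosolic Dnajc12 (-0.21 ± 0.049) fell. Dnajc6 (-0.12, adjusted p = 0.0311) and Dnajb4 (-0.12, adjusted p = 0.0493) were nearest the threshold. The Dnajb4 difference was -0.079 without alcohol mouse 3 (adjusted p = 0.128) and -0.34 with normexp correction. Dnajc7 did not pass: its levels were 9.18 to 9.96 in SN and 9.02 to 10.27 in TH (0.07 ± 0.10, adjusted p = 0.587).

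Under older symbols, Pdia3 rose in alcohol mice, with 10.20, 10.51 and 10.82 in SN and 9.92, 10.12 and 10.51 in TH (0.36 ± 0.10, adjusted p = 0.00708), and Dnajc27 rose by 0.35 on the log2 scale without overlap. Dnajc18 of the ER membrane rose as well, with 7.48 to 7.71 in SN and 7.43 to 7.63 in TH (0.12 ± 0.042, adjusted p = 0.0353; 0.23 with normexp correction). Of 17 genes under older symbols these 3 rose and 6 fell.

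Hspa4l, an Hsp110 gene, had 6.79, 7.13 and 7.28 in SN and 7.23, 7.33 and 7.42 in TH, lower in SN in 7 of 8 pairs (-0.21 ± 0.051, adjusted p = 0.0036). Its size depended on the processing, at -0.57 with normexp correction and -0.090 with the median level of its probes. Dnajc30 differed by -0.45 without overlap. Dnajc21, a J-domain gene of ribosome maturation, differed by -0.17 ± 0.040 (adjusted p = 0.00277), lower in SN in every pair. Dnajc16 of the ER membrane differed by -0.13 ± 0.046 (adjusted p = 0.0296) and Dnajc17 by -0.12 ± 0.037 (adjusted p = 0.018; -0.26 with normexp correction). Hsp90aa1 fell by 0.14 on the log2 scale (adjusted p = 0.0123), or by 0.091 with the median level of its probes. Hsp90ab1, Pdia4, Pdia5 and Pdia6 did not pass, with differences of -0.11, -0.11, -0.04 and -0.11.

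The next comparisons asked whether alcohol drinking changed these genes in each fraction. In SN, 0 of 40 members passed between 8 alcohol and 13 control mice (limma, smallest adjusted p 0.417), as did 0 of all 17514 probes (a background of 0%). In TH 0 of 43 members passed, and 0 of 18318 probes (0%). At an unadjusted p under 0.05, 5 members were higher and 1 lower in SN of alcohol mice, where 5.64% and 4.95% of all genes were, and 2 were higher and 1 lower in TH, where 1.53% and 1.59% of all genes were. No cell marker passed in SN either. At the same unadjusted p, 2 of 8 astrocyte markers (Acsbg1 at 0.24 and Slc1a3 at 0.15) and 2 of 7 microglia markers (C1qb at 0.27 and C1qa at 0.15) were higher in alcohol mice. At that p, 1 of 6 neuron markers (Slc17a6 at -0.45) and 1 of 3 choroid plexus markers (Ttr at -1.80) were lower, and 0 of 6 oligodendrocyte and 0 of 8 endothelial and mural markers differed. In TH, the astrocyte marker Gja1 (0.11) and the endothelial and mural markers Flt1 (0.24) and Vtn (0.20) were higher at that p. Astrocyte markers summed to 60695 to 68506 in SN of alcohol mice and 53321 to 68677 in SN of control mice. Neuron markers summed to 29464 to 35667 in alcohol mice and 27667 to 40870 in control mice, and choroid plexus markers to 1229 to 2959 in alcohol mice and 1180 to 30314 in control mice. Their part in the members' values was not tested. The 95% intervals of the differences lay within 0.25 of 0 on the log2 scale for 32 of 40 members in SN and 41 of 43 in TH, and within 0.5 for all 40 in SN. The normalized scale is compressed at low signal. Narrow intervals of dim probes, such as those of Atf6 and Hspa5 in TH, therefore do not bound the change in those transcripts.

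**Figure D5:**
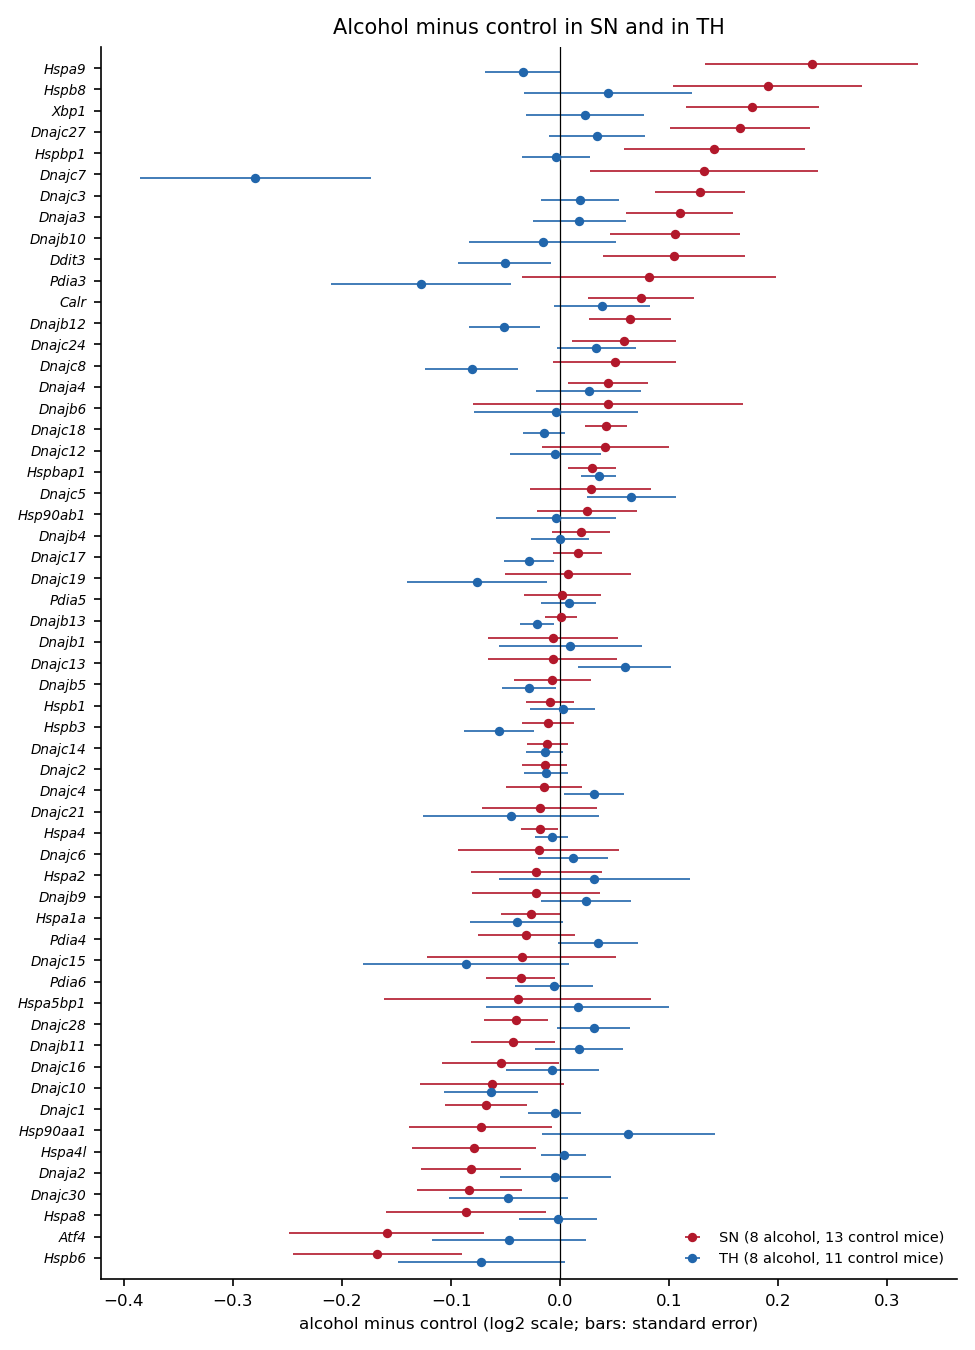
Difference between alcohol and control mice (x axis, log2 scale, bars show the standard error) in SN (red) and TH (blue) for members and genes under older symbols, ordered by the value in SN. Values in SN lie between -0.17 and 0.23, and the largest in TH is -0.28 for Dnajc7.

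In SN the smallest p belonged to Dnajc3, which measured 8.85, 8.90 and 9.06 in alcohol mice (lowest, median, highest) and 8.63, 8.81 and 8.94 in control mice. The ranges overlapped, and the difference was 0.13 with a 95% interval of 0.04 to 0.21 (adjusted p = 0.417). Xbp1 measured 10.57, 10.68 and 11.06 in alcohol mice and 10.28, 10.59 and 10.73 in control mice, 0.18 higher (0.05 to 0.30, adjusted p = 0.417). Hspa9 had 11.84, 11.95 and 12.00 in alcohol mice and 11.10, 11.76 and 11.97 in control mice (0.23, interval 0.03 to 0.43, adjusted p = 0.451). Without control mice 12 and 13 its difference was 0.13, and those of Dnajc3 and Xbp1 were 0.13 and 0.14.

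Dnajc27 (0.16, under an older symbol), Dnaja3 (0.11) and Hspb8 (0.19) completed the 6 smallest p in SN, with adjusted p of 0.436, 0.458 and 0.458. Without control mice 12 and 13 their differences were 0.11, 0.08 and 0.17, and 0 members passed. The other UPR factors in SN differed by -0.16 for Atf4 (interval -0.35 to 0.03) and 0.10 for Ddit3 (-0.03 to 0.24), and Atf6 and Hspa5 were not kept in that table. Among the classic chaperones, Hspa8 differed by -0.09 (-0.24 to 0.07), Calr by 0.07 (-0.03 to 0.17), Hspa1a by -0.03 (-0.09 to 0.03), Hspa2 by -0.02 (-0.15 to 0.10), Hsp90aa1 by -0.07 (-0.21 to 0.06) and Hsp90ab1 by 0.02 (-0.07 to 0.12).

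In TH the smallest p belonged to Dnajc7, with 9.24, 9.68 and 10.32 in alcohol mice and 9.74, 9.94 and 10.33 in control mice. Alcohol mice spread wider and lower, but the difference of -0.28 (interval -0.50 to -0.06) did not pass (adjusted p = 0.999). Hspa12b (0.05), Hspbap1 (0.04), Dnajc8 (-0.08), Hspb3 (-0.06) and Dnajc5 (0.07) followed, also at an adjusted p of 0.999. Xbp1 differed by 0.02 (-0.09 to 0.14), Atf4 by -0.05 (-0.20 to 0.10), Ddit3 by -0.05 (-0.14 to 0.04), Atf6 by -0.01 (-0.05 to 0.02) and Hspa5 by 0.006 (-0.04 to 0.05). Hspa8 differed by -0.002 (-0.08 to 0.07), Calr by 0.04 (-0.05 to 0.13) and Pdia3 by -0.13 (-0.30 to 0.05).

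The alcohol effect in SN was set against that in TH by fitting the SN minus TH differences of 8 alcohol and 11 control mice. Of 40 members 0 passed (smallest adjusted p 0.341), as did 0 of 17265 probes (0%). At an unadjusted p under 0.05, 7 members had a more positive difference in alcohol mice and 0 a more negative one, where 6.20% and 6.43% of all genes were. Dnajc7 led: its SN minus TH difference was -0.48, 0.11 and 0.77 in alcohol mice (lowest, median, highest) and -0.99, -0.37 and 0.19 in control mice, 0.50 apart (interval 0.16 to 0.85). The ranges overlapped over much of their length. The counts of 7 and 0 leave out the genes under older symbols. Of those, Hsp90aa1 (-0.21, interval -0.38 to -0.03) and Dnajc28 (-0.12, interval -0.23 to -0.02) were more negative at that p, and none was more positive.

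For Dnajc3 the SN minus TH difference was 0.28, 0.46 and 0.69 in alcohol mice and -0.04, 0.22 and 0.55 in control mice, 0.17 apart (0.02 to 0.31, adjusted p = 0.363). For Ddit3 it was 0.01, 0.22 and 0.37 in alcohol mice and -0.20, 0.06 and 0.23 in control mice, 0.17 apart (0.02 to 0.33, adjusted p = 0.372). Hsp90aa1 (-0.21, adjusted p = 0.364), Dnajc28 (-0.12) and Dnajb12 (0.15) were the others with the smallest p. Microglia markers did not pass in this test either, but 4 of 7 were more positive in alcohol mice at an unadjusted p under 0.05. They had sums of 4453 to 5444 in SN of alcohol mice and 3098 to 5604 in SN of control mice. Their part in these values was not tested.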

How the data were processed

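The members and gene lists were chosen with earlier results of these data known. The 3 mRNA tables of normalized values that the authors deposited are on a log2 scale, compressed at low signal, and each was normalized on its own. The deposited signal tables give, per the file headers, each probe's average intensity (linear) and detection p-value for 45281 probes. The submitters' processing notes name lumi without a version. The number of arrays limits the precision.

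Fits used R 4.3.3 with limma 3.58.1 (lmFit, eBayes, Benjamini-Hochberg over all probes of a comparison, adjusted p under 0.05), checked on simulated data. Plots came from matplotlib 3.10.9 under Python 3.11.15. SN against TH had the mouse as a block, and the other fits had none. For alcohol mice and for the difference between alcohol effects, log2 signals were quantile-normalized over both fractions, for 17265 probes kept in both alcohol tables. The pairing comes from the labels, which take both fractions from 1 homogenate: deviations of a mouse's SN and TH arrays from their group means correlated at 0.081 to 0.618, over 0.1 in 10 of 11 mice. Older symbols were updated where 1 RefSeq gene (GRCm38.p6) lists them. The genes named were the UPR factors, Hsp70, Hsp90, Calr, Canx and Pdia genes, the 8 called J-domain and small Hsp genes with the largest differences (the other called ones were added after their values were seen), the 3 largest called differences of each pathway list, and the 6 members with the smallest p in each alcohol comparison. Alternatives tried were joint quantile or normexp signals, filters on detection, all probes, other blocks, the median level of a gene's probes on each array, and leaving out each mouse. Files of miRNA arrays were not used here.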

Additional observations from a re-analysis of the deposited data

Results flagged for a closer look

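In 117 sets of 8 alcohol-mouse arrays (1 gene in 1 fraction), 6 had 1 array whose gap to the nearest other was a large share of the range, close to the 1 in 20 sets that chance gives. In SN these were Dnajc12 at 8.48 in alcohol mouse 1 (next 8.34), Dnajc24 at 8.60 in mouse 7 (next 8.46), Dnajc5 at 12.51 in mouse 8 (next 12.38), Hspa4 at 7.89 in mouse 3 (next 7.81) and, as the lowest value, Hspbp1 at 8.94 in mouse 3 (next 9.18). In TH it was Dnajc24, lowest at 8.37 in mouse 3 (next 8.55).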

How the results depend on the processing

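The members called between SN and TH of control mice numbered 20 of 43, and 18 to 20 when a mouse was left out. Under 8 alternatives they numbered 18 to 25, with 18 without a replicate block. The 25 were of 60 genes, once those under older symbols were counted. Over all genes tested, 41.3% were called. ER members called were 3 to 4 under alternatives and 3 to 4 when a mouse was left out, and cytosolic members 8 to 12 and 10 to 11. The median difference of ER minus cytosolic members, -0.035, was -0.0948 over probes detected on every array and turned to 0.0208 with no filter, and ran from -0.06 to 0.006 when a mouse was left out. It was 0.0117 with the genes under older symbols, an alternative chosen after seeing the data. In alcohol mice the count was 20, 18 to 19 under 4 alternatives and 18 to 21 when a mouse was left out. In the 3 alcohol comparisons 0 members were called under every alternative and without any mouse.

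Among single genes no called difference changed sign under the alternatives. In control mice Dnaja3 lost its call with quantile-normalized signals, normexp correction, all probes, no block and the median over probes (adjusted p 0.0516, 0.136, 0.0609, 0.0728 and 0.109), Calr with all probes and without a block (0.0789 and 0.0797), and Hsp90ab1 after normexp correction and without a block. In alcohol mice Dnajc6, Dnajc16, Dnajc18, Dnajc17 and Dnajb4 lost theirs when 1 mouse was left out, in 4, 5, 6, 1 and 5 of 8 fits, Dnajc6 and Dnajc16 with normexp correction, Dnajc6, Dnajc19, Hsp90aa1 and Hspa4l with the median over probes, and Calr, Dnajb4, Dnajc16, Dnajc21 and Hsp90aa1 without a block. The cause was not tested. Alcohol and control mice share replicate numbers without being paired. With the number as a replicate block 0 members were called in SN and 0 in TH, and same-numbered mice correlated at -0.265 to 0.348 in SN and -0.296 to 0.201 in TH. The BeadChip as a block was not run, because the file headers used here name no BeadChip. Probes near background, such as those of Atf6, Hspa5, Hspa12b and Hspb1, limit what could be seen.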
